A study of Mus musculus with 9 samples.

Results

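The genes described here are 10 cadherins, Cdh1, Cdh2, Cdh3, Cdh4, Cdh5, Cdh6, Cdh10, Cdh11, Cdh13 and Cdh15, out of 19938 genes measured. They were taken by gene symbol, and each was read by 1 probe set whose annotation names that gene alone. RNA was profiled on 9 expression arrays, 3 in each of 3 groups, and each array held the RNA of a single sample. The osteosarcoma group is made of the lines 493H, 494H and 716H, with 1 array each. They came from tumours of adult C57BL/6 mice of the genotype Osx-Cre p53fl/fl Rbfl/fl, in which the promoter of osterix, a gene of the osteoblast lineage, drives Cre recombinase to delete p53 and Rb. By their labels all of these lines are fibroblastic, 493H and 716H are female and 494H is male, and all were grown subconfluent and below passage 8. Pre-osteoblasts were undifferentiated cultures of Kusa4b10, a stromal cell line from mouse bone marrow, and osteoblasts were Kusa4b10 cultures differentiated with ascorbate over 21 days. No engineered allele is named for Kusa4b10, and its cultures are described as independent, so the spread in those groups is that between cultures of 1 line, and the spread of the osteosarcoma group is that between lines.

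Classical cadherins are transmembrane proteins that bind cadherins of neighbouring cells in a calcium-dependent manner, and their cytoplasmic tails bind beta-catenin and p120-catenin, which link them to alpha-catenin and actin. Cdh1 (E-cadherin), Cdh2 (N-cadherin), Cdh3 (P-cadherin), Cdh4 (R-cadherin) and Cdh15 (M-cadherin) belong to the type I branch, and Cdh5 (VE-cadherin), Cdh6 (K-cadherin), Cdh10 and Cdh11 (OB-cadherin) are grouped with the type II branch. Cdh13 (T-cadherin) is held in the membrane by a lipid anchor and lacks the catenin-binding tail. Cells of the osteoblast lineage are known for N-cadherin and cadherin-11.

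Values are log2 expression levels, so a difference of 1 is 2-fold. Each difference carries its standard error, and a gene is said to have risen or fallen where the Benjamini-Hochberg adjusted p from limma, over all genes, was below 0.05. A probe set has its own brightness, so levels of different genes do not rank their transcript amounts. Comparison with the median gene or with other dim genes serves only as a rough mark of a dim reading. The median gene had a mean level of 7.97, and 6 members, Cdh1, Cdh4, Cdh5, Cdh6, Cdh10 and Cdh15, lay below this on all 9 arrays. Array medians lay between 7.43 and 7.56. As a check of the labels, 5 of 9 measured osteoblast markers (Alpl, Ibsp, Sp7, Dmp1 and Phex) rose in osteoblasts against pre-osteoblasts, where 10.3% of all genes rose. Among these markers 0 fell or had a negative difference at an unadjusted p below 0.05. Of these Sp7 (adjusted p = 0.0456) lost its call without line 494H (0.0545), osteoblast culture 1 (0.0804) or 2 (0.107), or pre-osteoblast culture 1 (0.0543), 2 (0.128) or 3 (0.136). In the same comparison 5 of 7 adipocyte markers rose as well. Between osteosarcoma and osteoblasts, 3 osteoblast markers (Ibsp, Dmp1 and Phex) were lower in osteosarcoma and 1 (Bmp2) was higher. Of all genes, 12.7% were lower and 14.7% higher there. Ibsp had a mean of 7.02 in osteosarcoma and 13.20 in osteoblasts. In bulk RNA, fewer cells with a transcript and less of it per cell cannot be told apart. Being a tumour and being another cell line cannot be told apart here, nor can differentiation and the longer culture in its own medium. The 3 comparisons share their arrays, so their results are not independent of each other.

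Cdh11, the type II cadherin first described in osteoblasts, had its lowest level in pre-osteoblasts and its highest in osteosarcoma. The pre-osteoblast cultures read 7.34, 7.33 and 7.51 and the osteoblast cultures 10.62, 10.60 and 10.59. The lines 493H, 494H and 716H read 12.75, 12.32 and 13.12. The 3 groups did not overlap in any pair (osteoblasts and pre-osteoblasts do not overlap for 44.2% of all genes, osteosarcoma and pre-osteoblasts for 35.6%, and osteosarcoma and osteoblasts for 38.7%). Group means were 7.39 ± 0.10 (SD, n = 3), 10.61 ± 0.01 (SD, n = 3) and 12.73 ± 0.40 (SD, n = 3). Cdh11 rose 9.28-fold in osteoblasts over pre-osteoblasts, a difference of 3.21 ± 0.17 (adjusted p = 1.98e-05). In osteosarcoma it was 40.5-fold higher than in pre-osteoblasts (5.34 ± 0.17, adjusted p = 3.80e-06). Osteosarcoma also exceeded osteoblasts, by 4.36-fold (2.13 ± 0.17, adjusted p = 1.14e-04). The pre-osteoblast readings lie within the span of 5.66 to 7.52 of the dim members, and no background level of this probe set was measured. The folds over pre-osteoblasts are therefore ratios of the normalized values and may understate the ratio of transcripts. In the pre-osteoblast cultures Cdh11 was below the median gene level of 7.97, whereas in every osteoblast and osteosarcoma array it was above it.

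Besides the probe set used, 3 other probe sets carried Cdh11 in their annotation together with 2 more genes, 6820431F20Rik and 2610005L07Rik. They were left out for naming several genes. Their levels stayed within ranges of 0.34, 0.59 and 0.44 over the 9 arrays, against 5.79 for the probe set that names Cdh11 alone. The rise of Cdh11 therefore rests on 1 probe set. On the shared probe sets the means were lower in osteosarcoma (12.87, 11.64 and 12.94) than in pre-osteoblasts (13.02, 11.92 and 13.17). Their osteoblast means (13.12, 12.02 and 13.23) were slightly above those of pre-osteoblasts. Which transcripts those shared probe sets detect was not tested.

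Cdh3, P-cadherin, known from basal epithelia and placenta, had a different order, with its highest level in pre-osteoblasts. Pre-osteoblast cultures 1, 2 and 3 read 10.55, 10.98 and 10.74, and the osteoblast cultures read 7.13, 7.45 and 7.42. The lines 493H, 494H and 716H stood between them at 9.50, 9.94 and 9.92. No array of a group overlapped another group. In the same order the group means were 10.76 ± 0.22 (SD, n = 3), 7.34 ± 0.18 (SD, n = 3) and, for the lines, 9.79 ± 0.25 (SD, n = 3). Cdh3 fell 10.7-fold in osteoblasts (-3.42 ± 0.16, adjusted p = 1.29e-05), to a level below the median gene and within the span of the dim members, so that this fold too is one of normalized values. Osteosarcoma lay 1.96-fold below pre-osteoblasts (-0.97 ± 0.16, adjusted p = 0.00301) and 5.48-fold above osteoblasts (2.45 ± 0.16, adjusted p = 4.57e-05). Between the Kusa4b10 states Cdh3 and Cdh11 thus moved in opposite directions, while against osteoblasts both were higher in osteosarcoma.

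**Figure D1:**
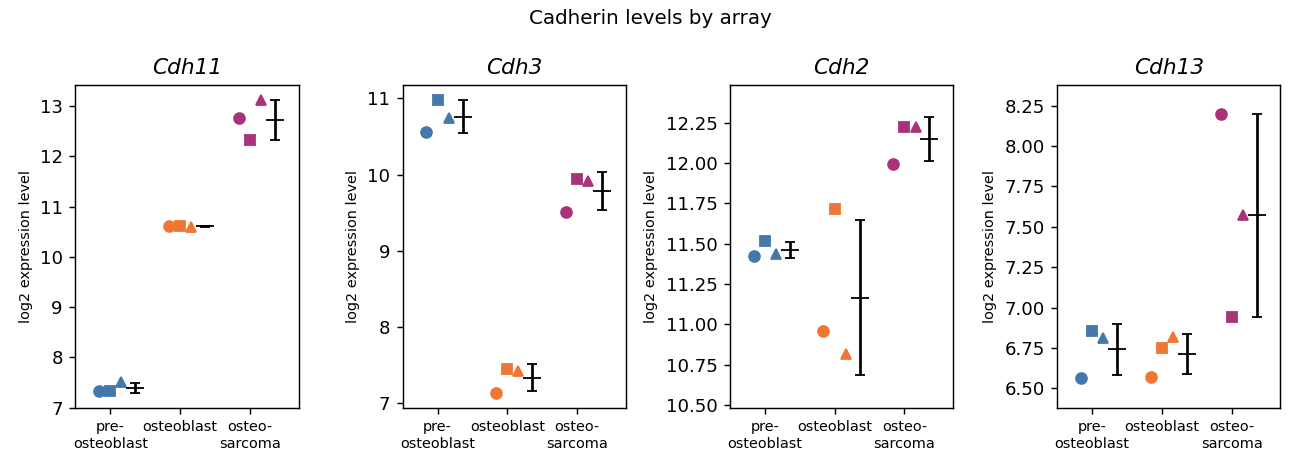
Levels of Cdh11, Cdh3, Cdh2 and Cdh13 (vertical axes, log2 expression level, with a scale of its own for each gene) in the 3 groups. Each point is 1 array (circle, square and triangle for replicates 1, 2 and 3, which are the lines 493H, 494H and 716H in osteosarcoma), and the black bars are the mean and SD of 3 arrays. Cdh11 climbs from 7.39 through 10.61 to 12.73, Cdh3 is lowest in osteoblasts at 7.34, and the lines are spread widest for Cdh13.

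Cdh2, N-cadherin, which joins mesenchymal and neural cells, was the single member above the median gene level on all 9 arrays. Pre-osteoblasts read 11.43, 11.52 and 11.44, and the lines 11.99, 12.23 and 12.23. The osteoblast cultures were at 10.96, 11.71 and 10.82, so that culture 2 lay above every pre-osteoblast culture and the others below them. Cdh2 stood 1.98-fold above osteoblasts in osteosarcoma (0.98 ± 0.21, adjusted p = 0.00836). Against pre-osteoblasts the lines were 1.61-fold higher (0.69 ± 0.21, adjusted p = 0.0446), with all 3 lines above all 3 cultures. That call was lost when any of 7 arrays was left out: line 493H (adjusted p = 0.0639), 494H (0.0974) or 716H (0.103), osteoblast culture 1 (0.0592), or pre-osteoblast culture 1 (0.118), 2 (0.0926) or 3 (0.116). It was also lost with 1 array weight per group (0.0969). Between osteoblasts and pre-osteoblasts the difference of -0.30 ± 0.21 did not pass (adjusted p = 0.367, 95% interval -0.77 to 0.18). Without osteoblast culture 2 it was -0.57 with an adjusted p of 0.00452. That culture also stood apart for Vcl, which encodes vinculin, at 12.10 against 11.26 and 11.22 in osteoblast cultures 1 and 3. It was higher than both for the osteoblast markers Alpl (13.01 against 11.80 and 11.66) and Sp7 (10.75 against 9.34 and 8.93) as well. For the osteoblast marker Dmp1 the same culture was lower than both (10.35 against 11.07 and 10.75). The contractile genes Tagln (10.50 against 8.75 and 8.82) and Acta2 (13.40 against 12.49 and 12.58) were also higher in it. The part of these in the Cdh2 value was not tested.

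Cdh13, T-cadherin, a receptor for adiponectin, differed most among the lines. It was at 8.20 in line 493H, 6.94 in 494H and 7.57 in 716H, a range of 1.25. Of all genes, 3.17% had a wider range over the lines. In the Kusa4b10 cultures it lay between 6.56 and 6.85, and all 3 lines were above all of these. The pre-osteoblast cultures were at 6.56, 6.85 and 6.81 and the osteoblast cultures at 6.57, 6.75 and 6.81. Osteosarcoma was 1.81-fold higher than osteoblasts (0.86 ± 0.27, adjusted p = 0.0465), a call that was lost without line 493H (0.55, adjusted p = 0.0789) or 716H (0.0908). It was lost as well without osteoblast culture 1 (0.138), 2 (0.0975) or 3 (0.0940), without pre-osteoblast culture 1 (0.0639), 2 (0.0697) or 3 (0.0733), and when the fit held only the groups compared (0.108). Against pre-osteoblasts the difference of 0.83 ± 0.27 did not pass (adjusted p = 0.0592), but without line 494H it was 1.14 (adjusted p = 0.00401). The difference between osteoblasts and pre-osteoblasts was -0.03 ± 0.27 (adjusted p = 0.958, 95% interval -0.65 to 0.59).

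Cdh15, M-cadherin of skeletal muscle precursors, was dim and changed little. Pre-osteoblasts read 7.20, 7.14 and 7.22, osteoblasts 7.50, 7.40 and 7.52, and the lines 7.18, 7.37 and 7.27. Osteoblasts exceeded pre-osteoblasts 1.22-fold (0.29 ± 0.07, adjusted p = 0.0139), with the groups apart. The call was lost without osteoblast culture 1 (adjusted p = 0.0537) or 3 (0.0552) or pre-osteoblast culture 2 (0.0523). Osteosarcoma differed by -0.20 ± 0.07 from osteoblasts (adjusted p = 0.0558), and the value was -0.25 without line 494H (adjusted p = 0.0254) and -0.24 without osteoblast culture 2 (0.0474). Against pre-osteoblasts it differed by 0.08 ± 0.07 (adjusted p = 0.429). Of the other 9 skeletal muscle markers, Acta1 fell in osteoblasts (-0.48 ± 0.06, adjusted p = 0.00112) and the rest, Myod1 and Myog among them, did not pass.

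The 250 bases before the start of Cdh15 are shown because it is the one member past a test whose promoter the sequence table holds. The stretch is chr8:122848124-122848373 of GRCm38.p6, plus strand, from RefSeq, and capitals mark matches to CANNTG, the E-box letters that myogenic and other helix-loop-helix factors can bind.
Cdh15: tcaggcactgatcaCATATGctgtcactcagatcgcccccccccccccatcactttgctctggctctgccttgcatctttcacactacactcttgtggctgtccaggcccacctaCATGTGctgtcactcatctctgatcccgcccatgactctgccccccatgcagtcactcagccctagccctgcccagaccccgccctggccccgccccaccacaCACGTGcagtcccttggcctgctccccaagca
It holds 3 such matches, which begin 236, 135 and 32 bases before the start of the gene. CANNTG reads the same on both strands, and 66.2% of 32851 promoter windows of this length hold it. CACCTG or CAGGTG, the subset of these letters preferred by Snail and Zeb repressors, had 0 matches (17.2% of windows hold it), and TATAAA on either strand had 0 (12.4%). CCGCCC on either strand had 3 matches (32.7%). The table matched 3 of the 10 members, and in the same window Cdh6 had 1 match to CANNTG and 2 to CCGCCC, and Cdh10 had 4 and 0.

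The other members, Cdh1, Cdh4, Cdh5, Cdh6 and Cdh10, were dim and did not pass in any comparison. Cdh1, the main cadherin of epithelia, ranged from 6.98 to 7.05 in pre-osteoblasts, from 7.03 to 7.13 in osteoblasts and from 6.92 to 7.13 in the lines. Its 95% confidence intervals reached from -0.09 to 0.21 for osteoblasts against pre-osteoblasts, from -0.15 to 0.15 for osteosarcoma against pre-osteoblasts and from -0.22 to 0.08 for osteosarcoma against osteoblasts. Of 11 epithelial markers, Cdh1 among them, 0 passed in limma in either comparison with pre-osteoblasts (2 in osteoblasts and 0 in osteosarcoma at an unadjusted p below 0.05), and Krt19 alone passed between osteosarcoma and osteoblasts (1.06 ± 0.30, adjusted p = 0.0318). Krt19 was at 8.07, 8.48 and 7.06 in the lines. This call was lost without line 493H (adjusted p = 0.0959) or 494H (0.0625), and without osteoblast culture 1 (0.0925), 2 (0.0609) or 3 (0.0966). It was lost as well without pre-osteoblast culture 1 (0.0502), 2 (0.0519) or 3 (0.0541), and with only the groups compared in the fit (0.0895). Whether other epithelial markers passed under these alternatives was not counted. Beside the counts of the main fit, 26.1%, 23.5% and 27.4% of all genes passed in the 3 comparisons, in the order given for Cdh1.

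Cdh5, the cadherin of endothelium, lay between 6.54 and 6.66 on all 9 arrays, a range of 0.12, the narrowest of the members. Of 10 endothelial markers, 0 passed in limma in any of the 3 comparisons, and 2 (Tek and Cldn5) had an unadjusted p below 0.05, both between osteosarcoma and pre-osteoblasts. The share over all genes was 26.1%, 23.5% and 27.4% in the order of the comparisons for Cdh1. Tek, the angiopoietin receptor, was at 9.02 in line 493H against 6.28 and 7.15 in 494H and 716H, and Cdh5 had values of 6.62, 6.63 and 6.62 in these lines. Cdh4, R-cadherin of retina and brain, lay between 7.30 and 7.51, and its differences were -0.004, -0.002 and 0.001 in the order of the comparisons for Cdh1.

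Cdh6, known from kidney, had the same value, 6.84, in all 3 lines to the last deposited digit. Such ties in all 3 lines were found for 256 genes (1.28%), and 241 of them had a mean below the median gene level. Cdh6 lay between 6.69 and 6.92 in the Kusa4b10 cultures. Cdh10, a cadherin of brain, was at 5.68, 5.85 and 5.83 in the lines, between 5.67 and 5.71 in osteoblasts and between 5.66 and 5.68 in pre-osteoblasts. Its differences of 0.11 ± 0.06 from pre-osteoblasts (adjusted p = 0.213) and 0.10 ± 0.06 from osteoblasts (adjusted p = 0.231) did not pass, but with quantile normalization again they were 0.19 (adjusted p = 0.0219) and 0.18 (0.0252), and with the arrays centred the latter was 0.17 (0.0405).

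Counted over the family, 2 of the 10 members (Cdh11 and Cdh15) rose and 1 (Cdh3) fell in osteoblasts against pre-osteoblasts, where 26.1% of all genes passed, 10.3% higher and 15.8% lower. Between osteosarcoma and pre-osteoblasts 2 (Cdh11 and Cdh2) were higher and 1 (Cdh3) was lower, against 23.5% of all genes, 9.96% higher and 13.5% lower. Osteosarcoma exceeded osteoblasts in 4 members (Cdh2, Cdh3, Cdh11 and Cdh13) with 0 lower by limma (1 lower, Cdh15, at an unadjusted p below 0.05), where 27.4% of all genes passed, 14.7% higher and 12.7% lower. The share of members that passed was thus close to that of all genes in the first 2 of these comparisons. In the last, the Cdh13 call among the 4 was lost under 9 of 17 alternatives. In the 3 comparisons 3, 4 and 5 of the 10 members had groups that did not overlap, beside 44.2%, 35.6% and 38.7% of all genes. The member medians were -0.02, 0.05 and 0.07, beside -0.004, -0.02 and -0.02 over all genes.

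**Figure D2:**
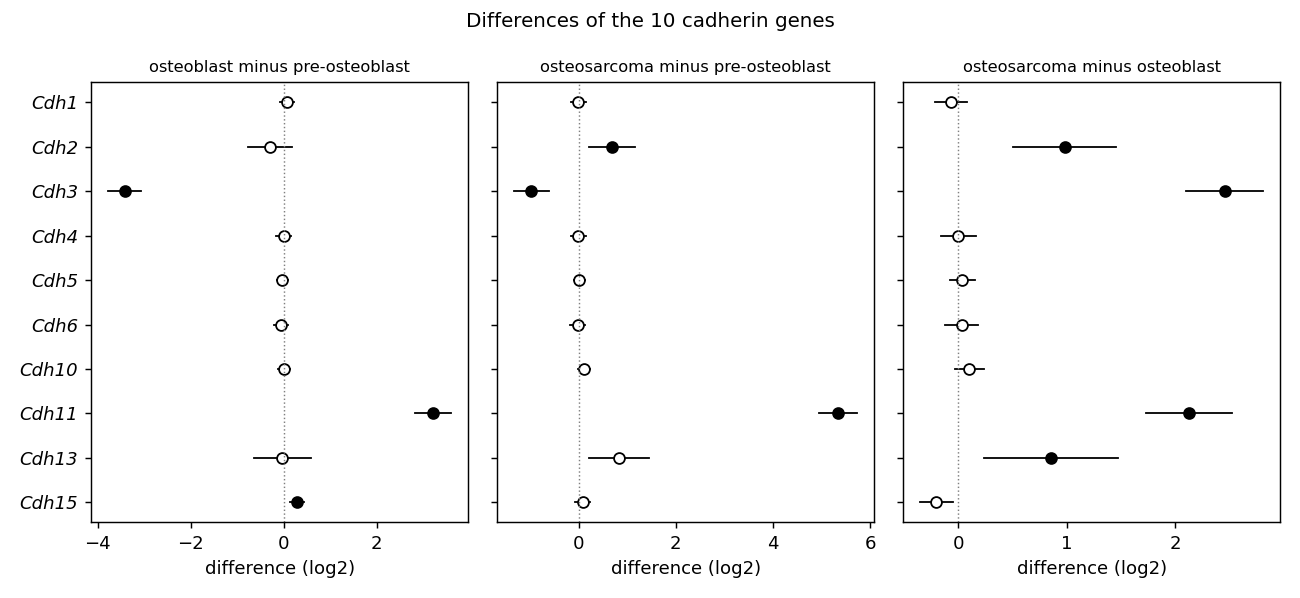
Differences between groups (horizontal axes, log2, with a scale of its own in each panel) of the 10 members, 1 panel per comparison. Points are differences of group means over 3 arrays each, bars their 95% intervals, and filled points passed the limma test at an adjusted p below 0.05. Cdh11 and Cdh3 lie far from 0 in each panel, except that Cdh3 is at -0.97 between osteosarcoma and pre-osteoblasts, and the dim members lie close to 0.

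Of the 10 members, 6 lie on mouse chromosome 8, and they form 2 adjacent pairs with 0 protein-coding genes between them in the GRCm38.p6 annotation. In each pair 1 gene changed and the other did not pass. Cdh3 differed by -3.42 in osteoblasts against pre-osteoblasts while its neighbour Cdh1 differed by 0.06. Cdh11 differed by 3.21 while its neighbour Cdh5 differed by -0.03. The same held in osteosarcoma against pre-osteoblasts, with -0.97 for Cdh3 and -0.003 for Cdh1, and 5.34 for Cdh11 and 0.01 for Cdh5. On the same chromosome Cdh13 and Cdh15 are separated from each other by 61 coding genes.

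Among the lines, Cdh11 had a range of 0.79, from 12.32 in 494H to 13.12 in 716H, and 7.71% of genes had a wider one. The osteoblast cultures differed by 0.03 and the pre-osteoblast cultures by 0.18 for this gene. For Cdh3 the lines spanned 0.44, close to the 0.43 of the pre-osteoblast cultures, with 493H lowest. Cdh2 spanned 0.23 over the lines but 0.89 over the osteoblast cultures. The line with the highest Cdh13, 493H, had the lowest Cdh2 and Cdh3, and 494H, with the lowest Cdh13, also had the lowest Cdh11. Each line has a single array, so differences between lines were not tested.

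Genes with patterns most like those of Cdh3 and Cdh11, the members that passed in all 3 comparisons, were ranked by Pearson correlation of level over the 9 arrays, among 2331 genes whose group means spanned at least 1 log2. The points share 3 groups, so that r mostly reflects the order of the group means. Closest to Cdh3 were the neuregulin gene Nrg1 (r = 0.996), the growth factor Fgf7 (0.995), Ajuba, which encodes a LIM protein of cell junctions (0.994), Ubl5 (0.989) and Aacs (0.989). Group means of Nrg1 were 10.77 in pre-osteoblasts, 8.70 in osteoblasts and 10.13 in osteosarcoma. Closest to Cdh11 were the guidance ligand Slit2 (r = 0.991), Tmem45a (0.986), the matrix gene Edil3 (0.982), Rnf130 (0.980) and the imprinted gene Plagl1 (0.976). Slit2 was at 6.88, 9.66 and 11.51 in the same groups.

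The catenins that bind cadherin tails had smaller differences than Cdh3 and Cdh11 between osteoblasts and pre-osteoblasts. For Ctnnb1, beta-catenin, pre-osteoblasts read 12.81, 12.73 and 12.68, osteoblasts 12.93, 13.09 and 12.90, and the lines 12.86, 12.91 and 13.05. Its differences of 0.24 ± 0.08 in osteoblasts (adjusted p = 0.0539) and 0.20 ± 0.08 in osteosarcoma (adjusted p = 0.0974) from pre-osteoblasts did not pass. Ctnna1, alpha-catenin, was raised in osteosarcoma, against pre-osteoblasts by 0.48 ± 0.06 (adjusted p = 7.82e-04) and against osteoblasts by 0.36 ± 0.06 (adjusted p = 0.00227). Ctnnd1, p120-catenin, lay below pre-osteoblasts in osteosarcoma (-0.30 ± 0.07, adjusted p = 0.0124). Jup, plakoglobin, was at 8.68 in line 494H and at 9.95 or more in the other lines, and did not pass in any comparison.

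Of 18 catenins and linkers of the adherens junction, 3 rose and 5 fell in osteoblasts against pre-osteoblasts. Ajuba (-1.37 ± 0.09, adjusted p = 4.14e-05), the armadillo protein gene Pkp4 (-1.04 ± 0.18, adjusted p = 0.00371) and Vcl (-0.85 ± 0.21, adjusted p = 0.0192) fell most. The Vcl call was lost without osteoblast culture 1 (adjusted p = 0.0732) or 3 (0.0707) or pre-osteoblast culture 1 (0.0650) or 2 (0.0550). The scaffold genes Magi1 (0.82 ± 0.14) and Tjp1 (0.51 ± 0.08) rose, as did Afdn, afadin (0.56 ± 0.11). In osteosarcoma 1 was higher and 3 lower than in pre-osteoblasts (1 lower with only the groups compared in the fit), and 5 were higher and 2 lower than in osteoblasts, Pkp4 by 1.43 ± 0.18, Magi1 by -1.16 ± 0.14 and Ajuba by 1.00 ± 0.09. The medians of the list were -0.10, -0.04 and 0.04. Of all genes, 26.1%, 23.5% and 27.4% passed in the 3 comparisons.

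**Figure D3:**
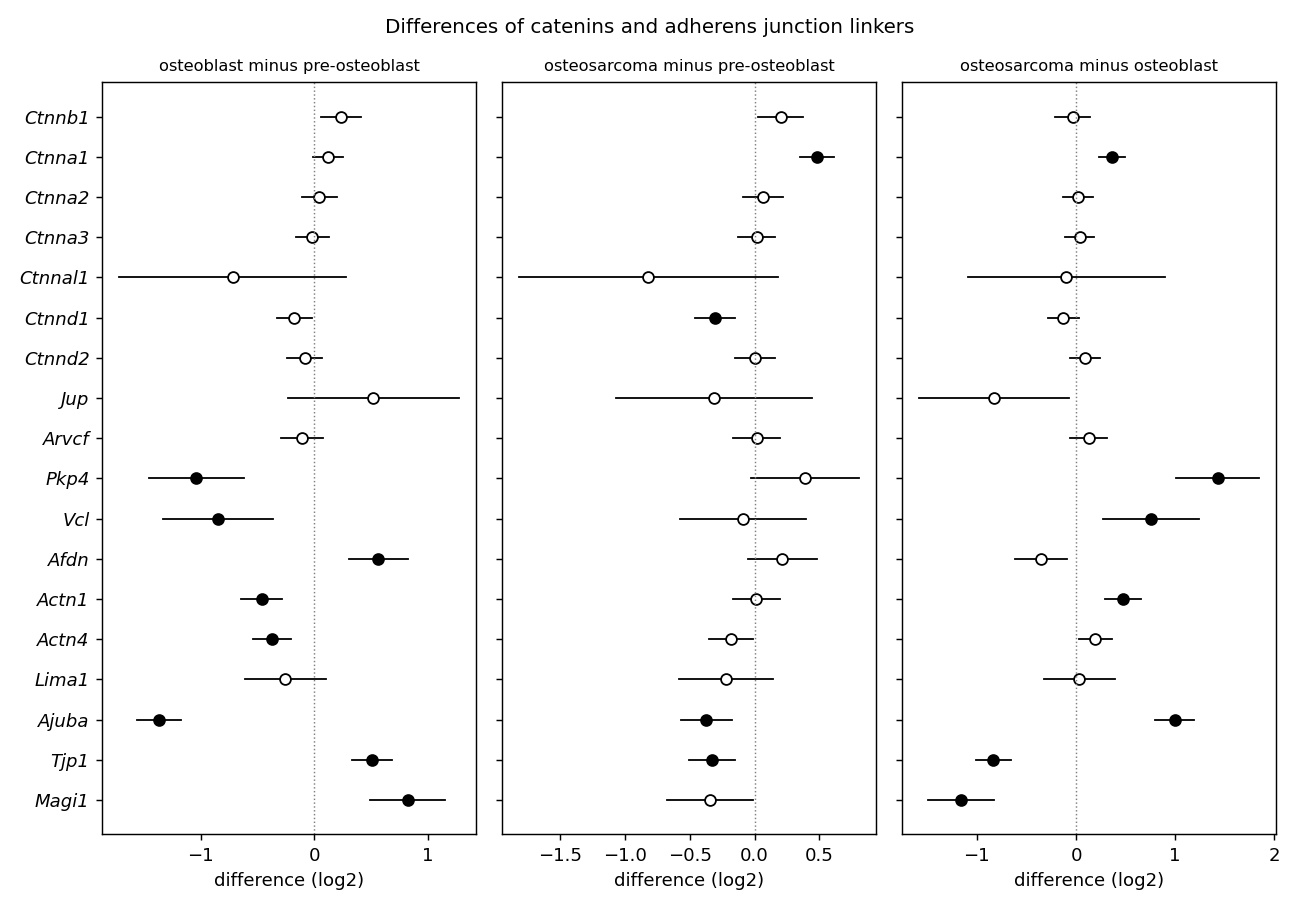
Differences between groups (horizontal axes, log2, with a scale of its own in each panel) of 18 catenins and adherens junction linkers, 1 panel per comparison. Points are differences of group means over 3 arrays each, bars their 95% intervals, and filled points passed the limma test at an adjusted p below 0.05. Ajuba and Pkp4 are the largest falls in osteoblasts, at -1.37 and -1.04, and Ctnnb1 is an open point in each panel.

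Further genes of the cadherin superfamily changed beside the members. Of 13 other cadherins, 2 rose (Cdh19 and Cdh23) and 1 fell (Cdh18) in osteoblasts against pre-osteoblasts, where 26.1% of all genes passed. Cdh19, known from Schwann cell precursors, was at 6.46, 6.35 and 7.12 in osteoblasts and between 4.37 and 4.74 on every other array, a rise of 2.04 ± 0.19 (adjusted p = 2.10e-04). All of these levels lay below the median gene level of 7.97, so this difference too is one of normalized values. Cdh18 fell by 1.54 on the log2 scale (SE 0.27, adjusted p = 0.00408), and in the lines it was at 8.44, 8.00 and 7.18. Cdh23 rose by 0.49 ± 0.12, a call lost without pre-osteoblast culture 2 (adjusted p = 0.0585). Of these 13, 0 passed between osteosarcoma and pre-osteoblasts in limma, 1 (Cdh26) having an unadjusted p below 0.05. The share over all genes was 23.5% there. Between osteosarcoma and osteoblasts 2 (Cdh18 and Cdh24) were higher in osteosarcoma and 2 (Cdh19 and Cdh23) lower, where 27.4% of all genes passed. The Cdh24 value of 0.50 ± 0.14 rests on the brighter of its probe sets, and their mean gave 0.21 (adjusted p = 0.105). Its call was also lost without line 493H (0.0592) or 494H (0.0754), without osteoblast culture 1 (0.104) or 3 (0.0706), and with 1 array weight per group (0.0606). The number higher than in osteoblasts was 1 under each of these except without 494H, and 4 with quantile normalization again or centring. Of 7 measured desmosomal cadherins, 0 passed in any comparison in limma, and 0 had an unadjusted p below 0.05.

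Of 23 protocadherin, Fat, Dachsous and Celsr genes, 5 were higher and 1 lower in osteosarcoma than in pre-osteoblasts, and 6 were higher and 1 lower than in osteoblasts. Of all genes, 23.5% and 27.4% passed in these comparisons. Pcdh7 had the largest difference of the list, at 8.78, 8.21 and 8.67 in the lines against 6.08, 5.88 and 6.07 in pre-osteoblasts and 6.53, 6.46 and 6.37 in osteoblasts. Its differences were 2.54 ± 0.14 (adjusted p = 3.63e-05) and 2.10 ± 0.14 (adjusted p = 5.86e-05). Pcdh18 was higher in osteosarcoma by 1.26 ± 0.16 and 1.46 ± 0.16. Pcdh9 was at 8.02 and 7.71 in 493H and 494H but at 6.57 in 716H, and its calls (1.25 ± 0.31, adjusted p = 0.0217, and 1.06 ± 0.31, adjusted p = 0.0365) were lost without 493H (0.0542 and 0.0977) or 494H (0.0573 and 0.0943), and likewise without any one pre-osteoblast culture, or, against osteoblasts, any one osteoblast culture. Fat1 was lower in osteosarcoma than in pre-osteoblasts (-0.60 ± 0.06) and osteoblasts (-0.49 ± 0.06). The number higher in osteosarcoma than in pre-osteoblasts ranged from 2 to 5 with 1 array left out: it was 3 without line 493H or 494H or pre-osteoblast culture 2, and 2 without pre-osteoblast culture 1. In osteoblasts against pre-osteoblasts 2 genes of this list fell, Fat4 (-1.08 ± 0.23) and Pcdh19 (-0.76 ± 0.17), where 15.8% of all genes fell.

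**Figure D4:**
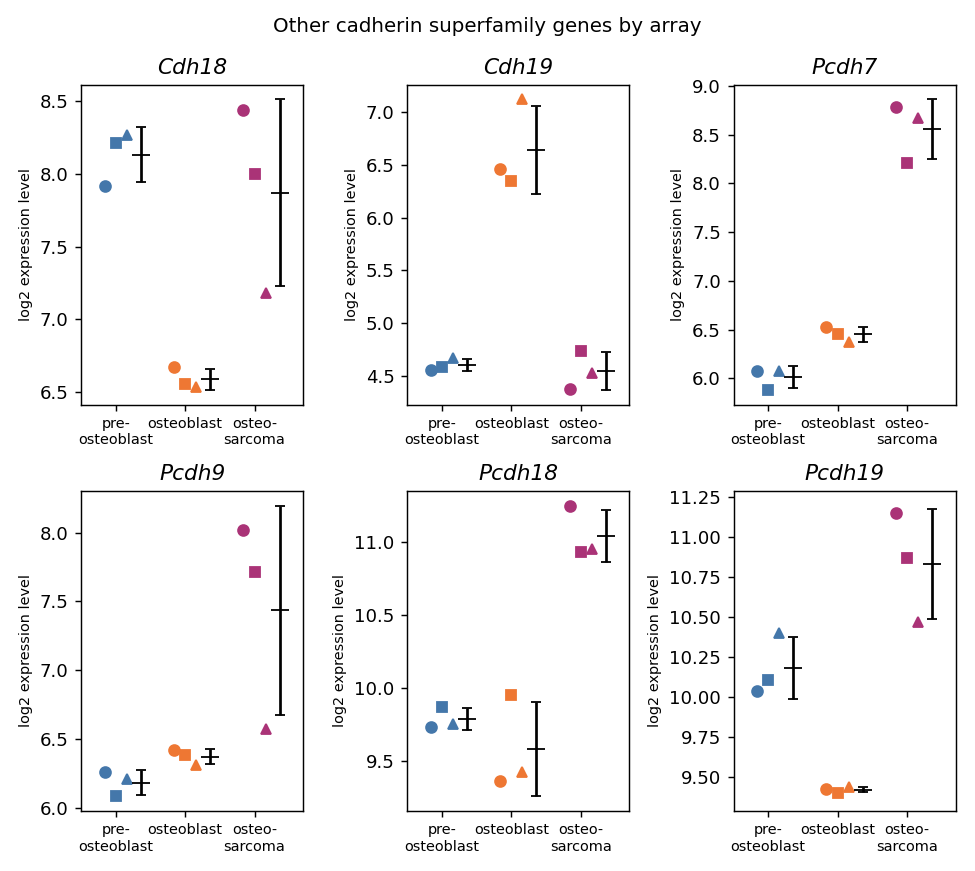
Levels of Cdh18, Cdh19, Pcdh7, Pcdh9, Pcdh18 and Pcdh19 (vertical axes, log2 expression level, with a scale of its own for each gene) in the 3 groups. Each point is 1 array (circle, square and triangle for replicates 1, 2 and 3, which are the lines 493H, 494H and 716H in osteosarcoma), with the mean and SD of 3 arrays in black. Cdh19 is higher in osteoblasts than in the other groups, though below the median gene level there too, and Pcdh7 is highest in the lines at 8.21 to 8.78.

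Factors known to act on cadherin genes changed in different directions. Of 14 such regulators, 3 rose and 3 fell in osteoblasts against pre-osteoblasts. Snai1 encodes a repressor of Cdh1. Its level was 10.44, 10.59 and 10.50 in pre-osteoblast cultures, 9.51, 9.59 and 9.25 in osteoblast cultures, and 10.26, 10.27 and 10.67 in the lines. It fell by 1.06 on the log2 scale in osteoblasts (SE 0.13, adjusted p = 7.79e-04) and was 0.95 ± 0.13 higher in osteosarcoma than in osteoblasts (adjusted p = 0.00117). Snai2 fell with it in osteoblasts (-1.09 ± 0.21, adjusted p = 0.00607). Cdh1 did not pass in either of these comparisons.

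Klf4, a factor of epithelial identity and stemness, rose 6.06-fold in osteoblasts (2.60 ± 0.29, adjusted p = 5.06e-04), where Zeb2 (0.74 ± 0.19) and Tcf4 (0.42 ± 0.11) rose also and Tcf3 fell (-0.67 ± 0.08). The number of regulators that rose was 1 without osteoblast culture 1 or pre-osteoblast culture 2 or 3, where Zeb2 had adjusted p values of 0.0609, 0.0699 and 0.0692 and Tcf4 of 0.0744, 0.0730 and 0.0720. Twist1, a mesenchymal factor, stood above pre-osteoblasts (0.82 ± 0.13, adjusted p = 0.00266) and osteoblasts (0.99 ± 0.13, adjusted p = 8.77e-04) in osteosarcoma. Against pre-osteoblasts 2 regulators were higher in osteosarcoma and 0 lower by limma (4 and 3 at an unadjusted p below 0.05), the other being Klf4 (1.13 ± 0.29, adjusted p = 0.0252), which was lost without pre-osteoblast culture 1 (0.0545), 2 (0.0719) or 3 (0.0840). Without line 493H the counts against pre-osteoblasts were 4 higher and 2 lower, and without osteoblast culture 2 there were 2 lower. Against osteoblasts 3 were higher and 2 lower, and 1 lower without osteoblast culture 1 or 2. The list medians were 0.002, 0.002 and -0.007. Over all genes, 26.1%, 23.5% and 27.4% passed in the 3 comparisons.

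**Figure D5:**
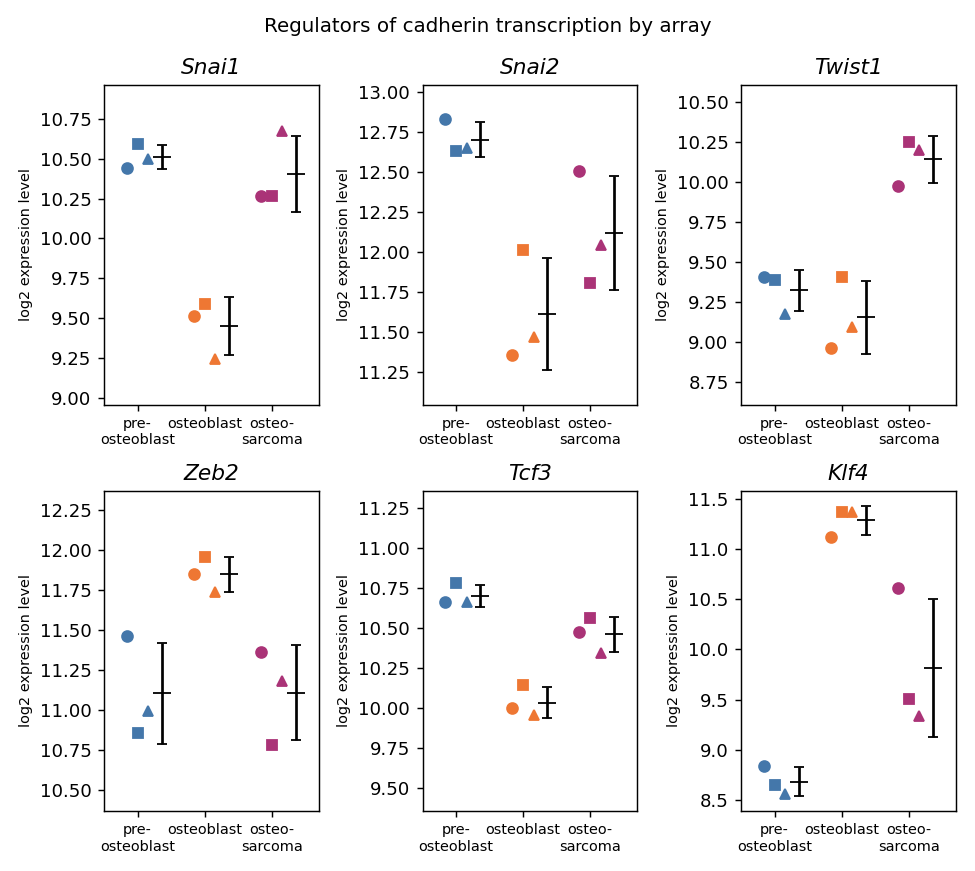
Levels of Snai1, Snai2, Twist1, Zeb2, Tcf3 and Klf4 (vertical axes, log2 expression level, with a scale of its own for each gene) in the 3 groups. Each point is 1 array (circle, square and triangle for replicates 1, 2 and 3, which are the lines 493H, 494H and 716H in osteosarcoma), with the mean and SD of 3 arrays in black. Snai1 and Tcf3 are lowest in osteoblasts, Klf4 is highest there, and Twist1 is highest in the lines.

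Among nectins and nectin-like molecules, the immunoglobulin-type partners of cadherins at junctions, 1 of 8 rose (Pvr, 0.76 ± 0.17) and 1 fell (Nectin2, -1.28 ± 0.25) in osteoblasts against pre-osteoblasts. Nectin1 was higher in osteosarcoma than in pre-osteoblasts (0.79 ± 0.12) and osteoblasts (0.85 ± 0.12). Of 14 genes of cadherin cleavage and turnover, 1 rose and 3 fell in osteoblasts against pre-osteoblasts, where 26.1% of all genes passed. Furin, the convertase that removes the cadherin prodomain, was lower than in pre-osteoblasts in osteoblasts (-0.70 ± 0.08, adjusted p = 4.93e-04) and in osteosarcoma (-0.95 ± 0.08, adjusted p = 1.67e-04). Mmp14, a membrane-bound matrix protease, rose in osteoblasts (0.75 ± 0.13). In osteosarcoma 1 was higher and 4 were lower than in pre-osteoblasts (23.5% of all genes passed), and likewise 1 and 4 than in osteoblasts (27.4%). Psen2, a presenilin of the gamma-secretase that cuts cadherins within the membrane, was among the lower ones (-0.97 ± 0.15 and -0.73 ± 0.15), and Adam10, a sheddase of cadherins, was the higher one (0.39 ± 0.10 against pre-osteoblasts, adjusted p = 0.0190, lost without pre-osteoblast culture 2 (0.0639) or 3 (0.0688), and 0.39 ± 0.10 against osteoblasts, adjusted p = 0.0161, lost without osteoblast culture 1 (0.0611) or 3 (0.0612)). The number higher than in osteoblasts was thus 0 without either of those cultures, and it was 3 without line 494H. The 4 lower were 2 without line 493H or 494H in either comparison, without pre-osteoblast culture 1 or 3 in the first and without any osteoblast culture in the second.

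Markers of other cells moved with some of these comparisons. Of 7 adipocyte markers, all were lower in osteosarcoma than in osteoblasts, and their median level was between 11.62 and 12.16 in the osteoblast cultures, 7.14 to 9.05 in pre-osteoblasts and 7.15 to 7.31 in the lines. Of 7 smooth muscle and pericyte markers, 3 (Acta2, Tagln and Cnn1) fell in osteoblasts against pre-osteoblasts. All 3 calls were lost without osteoblast culture 1 (adjusted p = 0.0783 for Acta2, 0.155 for Tagln and 0.0652 for Cnn1) or 3 (0.0830, 0.153 and 0.0622), and without pre-osteoblast culture 1 (0.0647, 0.133 and 0.0652) or 2 (0.0583, 0.0893 and 0.0558). Without pre-osteoblast culture 3, Acta2 (0.0642) and Tagln (0.103) lost theirs. Tagln was lost without any one line too (0.0573, 0.0515 and 0.0598). In osteosarcoma 2 of these markers were higher than in pre-osteoblasts, Cnn1 by 3.32 ± 0.37, and 1 (Pdgfrb) was lower, a call lost without pre-osteoblast culture 1 (0.0592). Compared with osteoblasts, 3 (Tagln, Cnn1 and Cspg4) were higher in osteosarcoma and 0 lower by limma. Of 9 neural markers, 3 (Ncam1, Map2 and Nes) were higher in osteosarcoma than in pre-osteoblasts and osteoblasts, while Sox10 and Sox2 did not pass. Against osteoblasts 1 (Syt1) was lower (-0.18 ± 0.05, adjusted p = 0.0381), a call lost under 12 alternatives, among them each line and each osteoblast culture left out. Between the Kusa4b10 states Ncam1 (0.75 ± 0.20, adjusted p = 0.0254) and S100b (0.63 ± 0.16, adjusted p = 0.0197) rose in osteoblasts. Ncam1 lost this call without osteoblast culture 1 (0.0668) or 2 (0.0698) or pre-osteoblast culture 1 (0.0809) or 3 (0.0769), and S100b without osteoblast culture 1 (0.0547) or pre-osteoblast culture 1 (0.0536), 2 (0.0643) or 3 (0.0538). Ncam1, a calcium-independent adhesion molecule, was at 12.01, 11.88 and 12.06 in the lines against 8.17 to 8.83 in pre-osteoblasts and 8.92 to 9.59 in osteoblasts. Of 7 measured haematopoietic markers, 0 passed in limma in any comparison, and 1 (Csf1r, between osteosarcoma and osteoblasts) had an unadjusted p below 0.05. The part of these markers in the cadherin differences was not tested.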

How the data were processed

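Array signals had been summarized per probe set by the authors with RMA, as log2 values on genome build mm9, per the submitters' processing notes (version and filters not given in the sources used here). This step equalizes the arrays, which makes every difference one relative to the other genes on the array, and it compresses small differences near background. The table held 35556 probe sets, of which 21789 had 1 gene symbol in the platform annotation, 1621 several and 12146 none. Those with 1 symbol were kept, and for 999 genes with more than 1 probe set the brightest on average was used, which left 19938 genes. All 9 arrays entered 1 limma fit (version 3.58.1, R 4.3.3) with a mean per group, 6 residual and 2.19 prior degrees of freedom, two-sided tests and Benjamini-Hochberg adjustment over all genes; the fit was tested on simulated data. Precision is limited by having 3 arrays per group.

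The members, the 16 gene lists and the tests were chosen with earlier results of these data known. The text names all members, up to 3 passing genes with the largest difference per list and comparison, catenins and regulators, list markers, and the 5 genes most correlated with Cdh3 and with Cdh11. A few further list genes (Afdn, Fat1 and Adam10 among them) lie outside this rule and were named after their values were seen. Sequences are from RefSeq. Alternatives were filters on dim genes, the mean of probe sets, quantile normalization again, centring, other estimates of spread, the groups compared alone, each array left out and the replicate number as a block.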

Additional observations from a re-analysis of the deposited data

How the results depend on the processing

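Cdh3 and Cdh11 kept their direction and passed under every alternative run, in all 3 comparisons: with 1 array left out, Cdh3 ranged from -3.53 to -3.31, from -1.07 to -0.83 and from 2.35 to 2.60, and Cdh11 from 3.18 to 3.27, from 5.15 to 5.54 and from 1.93 to 2.33 (osteoblasts and then osteosarcoma against pre-osteoblasts, then osteosarcoma against osteoblasts). The highest adjusted p among these was 0.0137. With 1 array left out, the members that passed numbered 2 to 4, 2 to 3 and 3 to 5. With quantile normalization again, 5 members passed between osteosarcoma and pre-osteoblasts in place of 3, Cdh10 and Cdh13 (0.88, adjusted p = 0.0497) being added. Cdh13 also passed there with the filter at the lower quartile (0.0473) and 1 array weight per group (0.0432). Signs turned only for differences of dim or uncalled members near 0. Between osteosarcoma and pre-osteoblasts, quantile normalization again gave 0.045 for Cdh1, 0.048 for Cdh4 and 0.027 for Cdh6, and centring gave 0.048, 0.049 and 0.030. Cdh10 was at -0.0078 between osteoblasts and pre-osteoblasts with centring. With 1 array left out, the ranges that crossed 0 were -0.061 to 0.046 for Cdh1, -0.045 to 0.051 for Cdh4, -0.0078 to 0.036 for Cdh5 and -0.037 to 0.0072 for Cdh6 between osteosarcoma and pre-osteoblasts. Between osteosarcoma and osteoblasts they were -0.041 to 0.049 for Cdh4 and -0.032 to 0.077 for Cdh6. Between osteoblasts and pre-osteoblasts they were -0.043 to 0.050 for Cdh4, -0.099 to 0.0098 for Cdh6, -0.0049 to 0.014 for Cdh10 and -0.12 to 0.041 for Cdh13. The cause of these shifts was not tested. Filters on dim genes removed members from the test: 3 of the 10 (Cdh2, Cdh3 and Cdh11) had a mean above the median gene. The labels number the Kusa4b10 cultures alike, and deviations of cultures with the same number correlated at 0.15, 0.18 and 0.03. For osteoblast cultures 1 and 2 the best match had the same number, and for culture 3 it was pre-osteoblast culture 1. These values do not settle whether the numbers mark pairs, and the main fit did not take them as pairs. With the replicate number as a block, the 3 members that passed between osteoblasts and pre-osteoblasts were still 3, with Cdh11 at 3.21 and Cdh3 at -3.42. Dim members limit what can be seen, since RMA compresses differences near background.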
